A study of Mus musculus with 30 samples.

Results

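The 40 genes described here encode proteins of the cardiac extracellular matrix, the enzymes that crosslink and degrade it, the transforming growth factor beta (TGF-beta) ligands, and a pair of genes that identify fibroblasts. They were chosen by name as genes read in cardiac fibrosis, and all 40 were found, once each, among 13575 genes measured in mouse hearts. Heart RNA from mice of 2 months of age, collected at ZT10 (10 hours after lights on), was sequenced in 6 libraries, 3 labelled control, which carry floxed alleles of the REV-ERB genes, and 3 labelled CM-RevDKO, in which REV-ERBα and REV-ERBβ are to be lost from cardiomyocytes. Cre recombinase is driven by the alpha myosin heavy chain (aMHC) promoter, per the labels of other samples of these lines, so fibroblasts keep both receptor genes by design. Floxed alleles are shared by both groups. Neither the sex of the RNA donors nor the Cre status of the controls was stated in the labels of these libraries. If the controls lack Cre, its own effect and that of receptor loss cannot be told apart. The atria had been trimmed, and the RNA came from all cells that remained.

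Cardiac fibroblasts, the interstitial cells that express the receptor PDGFRα and the transcription factor TCF21, secrete most of the fibrillar collagen of the heart. When TGF-beta or mechanical load activates them, they turn into contractile myofibroblasts that make more collagen, fibronectin and periostin, and lysyl oxidases crosslink the fibres. Matrix metalloproteinases cut the matrix and TIMP proteins inhibit those proteases, so the transcripts of all these classes are read together in studies of fibrosis.

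Values are FPKM, sequenced fragments divided by transcript length and by library size, so levels can be compared between genes per length. The header of the deposited table names no unit, and TPM could not be told apart from FPKM. Sequencing depth is unknown, and no counting interval is given. Summed values differed little between libraries, at 678722 to 712158, with 36.9% to 41.0% of them from mitochondrially encoded genes. Mb, the myoglobin gene of heart and skeletal muscle, stood at 7651 to 10548 FPKM, which alone does not tell these tissues apart. Nr1d1, which encodes REV-ERBα, was higher in the libraries labelled CM-RevDKO (log2 fold change 1.28, limma adjusted p = 0.0124), against the direction of the label. Nr1d2, which encodes REV-ERBβ, stood at 35.7 and 27.4 FPKM in controls and CM-RevDKO (adjusted p = 0.175). Values over whole genes check nothing about a deletion of single exons, so every direction below rests on the labels.

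Few matrix and fibroblast transcripts differed between the libraries labelled CM-RevDKO and control by more than the spread between replicates. A single gene of the 40 passed the test, Fbln1, which was lower, and none was higher. The test was limma on log2(FPKM + 1), fitted over 13256 genes that included all 40, with Benjamini-Hochberg adjusted p under 0.05. That is 2.50% of the 40 genes, and 2.50% of all genes tested were called too (1.26% higher and 1.24% lower). An unadjusted p under 0.05 was reached by 3 of the 40, Fbln1, Col4a2 and Timp1, against 16.6% of all genes tested. The 3 control values and the 3 CM-RevDKO values did not overlap for 4 of the 40 genes, Fbln1 below and Col4a2, Sparc and Timp1 above, whereas 23.1% of all genes tested showed no overlap. The median log2 fold change was 0.07 over the 40 genes and 0.02 over all genes tested. In bulk tissue, fewer cells of a type and less RNA per cell cannot be told apart.

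The larger differences were between libraries of the same group. The library labelled CM-RevDKO replicate 1 held the highest of the 6 values for 30 of the 40 genes, and control replicate 1 for another 8, so that 95% of these genes peaked in those libraries, against 49.2% of all genes tested. Among the CM-RevDKO libraries alone, 39 of the 40 genes were highest in replicate 1, and among the controls 30 of the 40 were highest in replicate 1, against 45.4% and 40.1% of all genes tested. Relative to the control mean, the median over the 40 genes was 0.23, -0.12 and -0.10 on the log2 scale in control replicates 1, 2 and 3, and 0.41, -0.11 and -0.11 in CM-RevDKO replicates 1, 2 and 3. Replicates 2 and 3 of both groups were thus nearly level, and the replicates 1 lay above them. Over all genes tested, the same median was 0.03 in control replicate 1 and 0.06 in CM-RevDKO replicate 1. The standard deviation within groups on the log2 scale had a median of 0.28 over the 40 genes and 0.17 over all genes tested. Of the 40 genes 31 had a positive log2 fold change, as had 7112 of the 13256 genes tested, but without CM-RevDKO replicate 1 only 14 had one and 26 a negative one, with a median of -0.11. With replicate 1 of both groups left out, an alternative chosen after seeing the data, 22 were positive and 18 negative, with a median of 0.01.

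**Figure D1:**
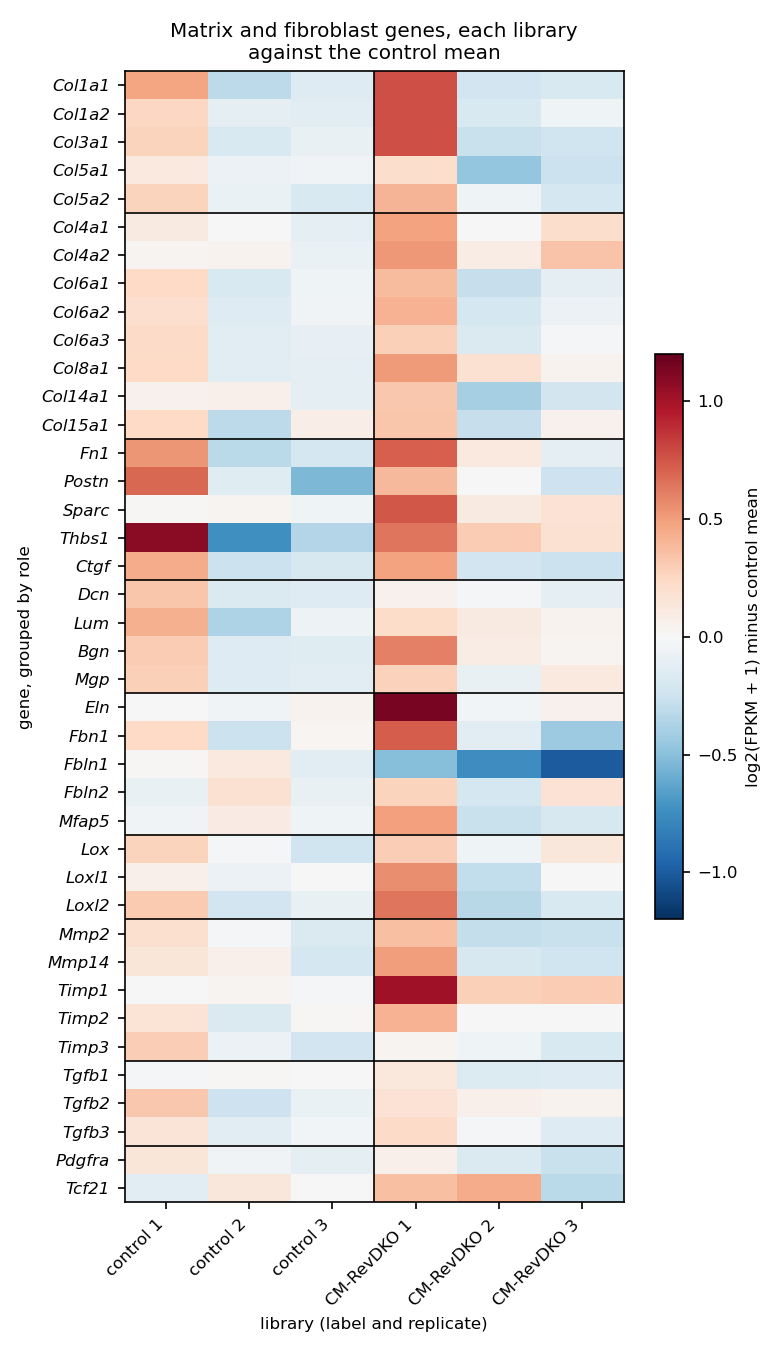
Heat map of the 40 genes (rows, grouped by role with black lines between groups) in the 6 libraries (columns), coloured by log2(FPKM + 1) minus the mean of the control libraries. The columns of CM-RevDKO replicate 1 and, less so, control replicate 1 are red in most rows, and the row of Fbln1 is blue in all CM-RevDKO libraries.

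Fbln1 encodes fibulin-1, a secreted calcium-binding glycoprotein that associates with fibronectin, elastic fibres and basement membranes. The gene (ENSMUSG00000006369) lies on chromosome 15 from 85205949 to 85286294 (mm10). It stood at 32.6, 35.1 and 29.1 FPKM in control replicates 1, 2 and 3 and at 22.3, 18.8 and 15.6 FPKM in the libraries labelled CM-RevDKO. Every CM-RevDKO value lay below every control value, in contrast to most of the other genes of the set, for which CM-RevDKO replicate 1 was the highest. Group means were 32.3 ± 2.97 and 18.9 ± 3.33 FPKM (SD, n = 3), 41.5% lower in mean FPKM. The log2 fold change on log2(FPKM + 1) was -0.75 (SE 0.14, 95% interval -1.08 to -0.42, limma adjusted p = 0.0414). Set against decorin, a fibroblast transcript, the Fbln1 to Dcn ratio was 0.0880, 0.134 and 0.111 in the control libraries. It was 0.0731, 0.0648 and 0.0570 in the CM-RevDKO libraries, without overlap. Dcn differed little between groups (log2 -0.03), so the ratio largely repeats the Fbln1 values and is no separate support. The adjusted p lay close to the threshold. It rose to between 0.0655 and 0.140 when any control library, or CM-RevDKO replicate 2 or 3, was left out, fell to 0.0283 without CM-RevDKO replicate 1, and ranged from 0.0197 to 1 over all alternatives, the last for a test against a fold change of 1.5.

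The bases before the start site of Fbln1 are shown because it was the gene past the test, and those of Sparc and Timp1 because their groups did not overlap. The groups of Col4a2 did not overlap either, but its window is shared with the transcribed start of Col4a1 and is described with type IV collagen without its bases. They were read from the RefSeq annotation of GRCm38.p6 (mm10), 250 bases each, 5′ to 3′ on the strand of the gene, and end at the base before the start. They lie at chr15:85205699-85205948 for Fbln1 (plus strand), chr11:55420081-55420330 for Sparc (minus strand) and chrX:20869916-20870165 for Timp1 (plus strand).
Fbln1: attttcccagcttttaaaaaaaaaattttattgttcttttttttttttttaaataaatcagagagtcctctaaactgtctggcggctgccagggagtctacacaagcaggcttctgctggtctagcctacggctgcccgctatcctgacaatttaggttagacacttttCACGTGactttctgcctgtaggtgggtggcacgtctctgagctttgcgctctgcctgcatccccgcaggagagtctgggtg
Sparc: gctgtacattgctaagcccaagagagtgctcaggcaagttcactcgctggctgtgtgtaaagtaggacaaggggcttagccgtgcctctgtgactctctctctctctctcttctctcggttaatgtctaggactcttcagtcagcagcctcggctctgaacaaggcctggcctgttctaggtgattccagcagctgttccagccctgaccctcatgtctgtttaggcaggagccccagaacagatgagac
Timp1: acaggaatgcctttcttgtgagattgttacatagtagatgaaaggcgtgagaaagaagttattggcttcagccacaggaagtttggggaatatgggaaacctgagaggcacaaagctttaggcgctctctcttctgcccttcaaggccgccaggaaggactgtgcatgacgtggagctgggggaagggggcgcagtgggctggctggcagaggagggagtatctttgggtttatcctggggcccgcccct
Capitals mark matches, on either strand, to AGGTCA, the half-site that REV-ERB and ROR receptors bind, or to CACGTG, the E-box that CLOCK and BMAL1 bind. The motifs share no overlap. The Fbln1 stretch held a CACGTG whose first base lies 81 bases before the start, and neither motif was found in the Sparc and Timp1 stretches. Over 32536 promoters with distinct bases in the same window, 6.04% held CACGTG and 14.0% AGGTCA. Of the 24 genes of the set with a promoter sequence, Fbln1 and Tgfb2 held CACGTG and Postn held AGGTCA. A match is a run of letters and no measure of binding.

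The fibrillar collagens give the interstitial matrix its tensile strength, and none of the 5 measured passed the test. Col1a1, the alpha1 chain of type I collagen (chromosome 11, from 94936224 to 94953042), was at 21.0, 11.8 and 13.3 FPKM in the controls and at 26.1, 12.6 and 13.0 FPKM in the libraries labelled CM-RevDKO. Replicate 1 was high in both groups, and the other 4 libraries lay between 11.8 and 13.3 FPKM. Its log2 fold change was 0.12 (95% interval -0.60 to 0.83, adjusted p = 0.893), an interval that spans both a fall and a rise of more than 1.5-fold. Col1a2, the second chain of type I collagen, stood at 31.3, 24.0 and 23.7 FPKM in the controls and at 45.5, 23.0 and 25.2 FPKM in CM-RevDKO. Col3a1, type III collagen (chromosome 1, from 45311538 to 45349706), stood at 46.0, 33.4 and 35.7 FPKM in the controls and at 65.5, 31.3 and 32.0 FPKM in CM-RevDKO. The pattern was the one of Col1a1, and without CM-RevDKO replicate 1 the remaining CM-RevDKO values of Col3a1 lay below all controls. Col1a2 had a log2 fold change of 0.18 (adjusted p = 0.771) and Col3a1 of 0.09 (adjusted p = 0.917). The ratio of Col1a1 to Col3a1 was 0.457, 0.352 and 0.372 in the controls and 0.398, 0.401 and 0.405 in CM-RevDKO, so the balance of the main collagens overlapped between groups. The type V chains, which nucleate fibrils, had log2 fold changes of -0.17 for Col5a1 (7.26 and 6.47 FPKM in controls and CM-RevDKO, adjusted p = 0.681) and 0.05 for Col5a2 (6.55 and 6.86 FPKM, adjusted p = 0.937). Col5a1 was the second lowest fold change of the 40, from 7.95, 6.84 and 7.00 FPKM in the controls to 8.55, 4.98 and 5.89 FPKM in CM-RevDKO. Its groups overlapped through CM-RevDKO replicate 1 alone.

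**Figure D2:**
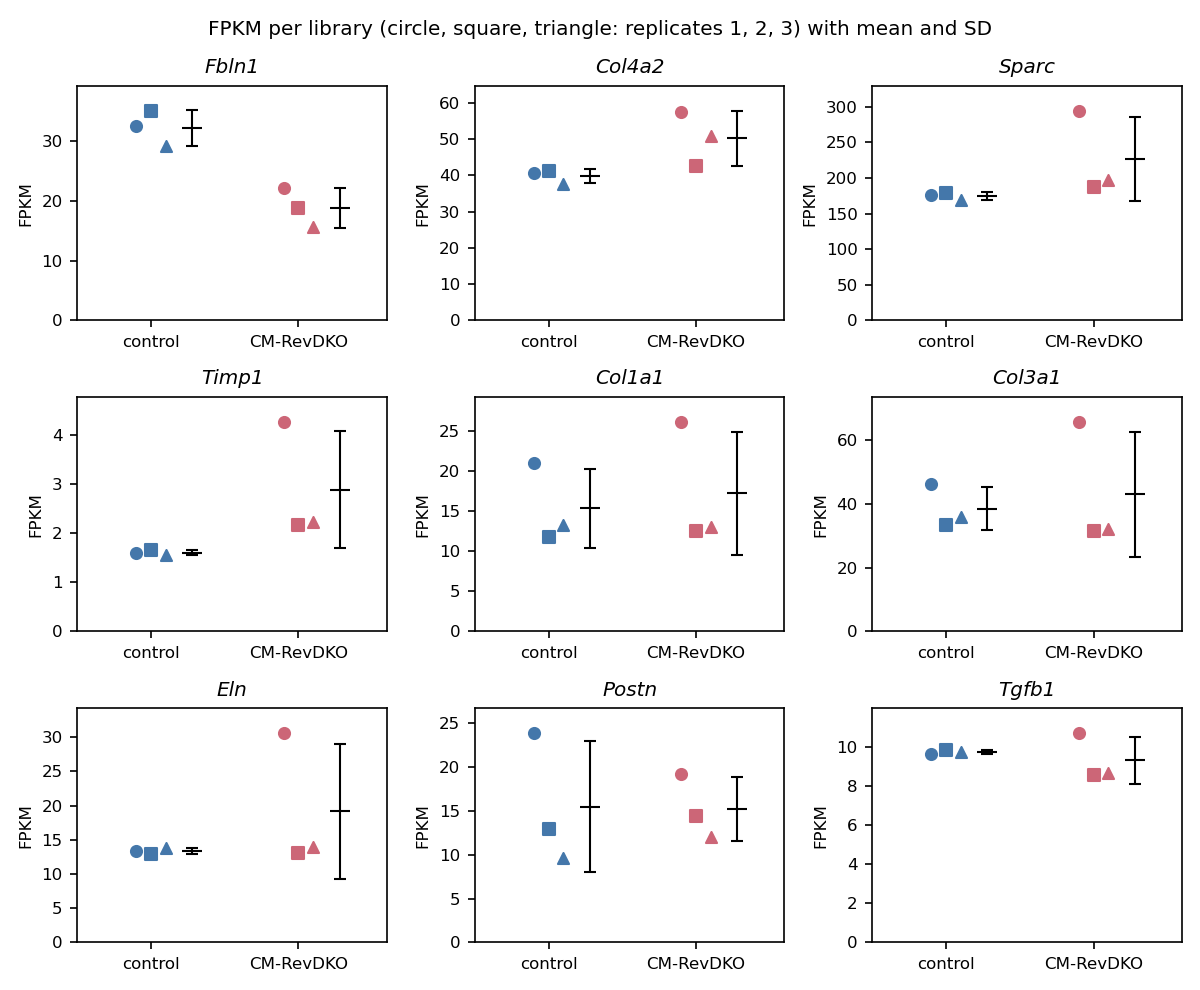
FPKM of 9 genes in each library, control in blue and CM-RevDKO in red, with the mean and SD (n = 3) beside each group and the vertical axis from 0. Fbln1 is lower in all CM-RevDKO libraries, Col4a2, Sparc and Timp1 are above the controls without overlap, and for Col1a1, Col3a1 and Eln the CM-RevDKO mean is raised by replicate 1.

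Type IV collagen forms the network of basement membranes around cardiomyocytes and capillaries, and its main chains had positive log2 fold changes that did not pass the test. Col4a2 (chromosome 8, from 11312805 to 11449287) stood at 40.7, 41.1 and 37.7 FPKM in the controls and at 57.5, 42.5 and 50.8 FPKM in the libraries labelled CM-RevDKO. The lowest CM-RevDKO value lay just above the highest control. The log2 fold change was 0.32 (SE 0.12, 95% interval 0.03 to 0.60, unadjusted p = 0.0331, adjusted p = 0.249). Col4a1 (chromosome 8, from 11198423 to 11312889) stood at 51.0, 47.3 and 43.6 FPKM in the controls and at 66.3, 47.1 and 54.8 FPKM in CM-RevDKO, with overlap through replicate 2 (log2 0.23, adjusted p = 0.453). The genes lie head to head. Their start sites in the promoter annotation, at 11312826 and 11312805, are 21 bases apart, and the windows around them share 78 bases, from 11312777 to 11312854. Their transcripts kept a steady proportion, Col4a1 to Col4a2 being 1.15 to 1.25 in the controls and 1.08 to 1.15 in CM-RevDKO. Their annotations also overlap from 11312805 to 11312889, where reads cannot be assigned without strand.

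The other non-fibrillar collagens showed no shift beyond their spread. Type VI collagen forms beaded filaments that tie cells to the interstitium, and its 3 chains had log2 fold changes of -0.01 for Col6a1 (21.0 and 21.1 FPKM), 0.04 for Col6a2 (18.1 and 18.9 FPKM) and 0.03 for Col6a3 (5.15 and 5.29 FPKM), with adjusted p of 0.940 to 0.992. Col6a1 and Col6a2 kept a ratio of 1.10 to 1.19 in all 6 libraries. Col8a1, a short-chain network collagen of vessels, stood at 6.52, 4.86 and 4.88 FPKM in the controls and at 8.10, 6.22 and 5.55 FPKM in CM-RevDKO (log2 0.24, adjusted p = 0.50). Control replicate 1 was the value that made the groups overlap. Col14a1, which decorates collagen fibrils, had means of 4.78 and 4.52 FPKM (log2 -0.10, adjusted p = 0.845), and Col15a1, which links basement membrane to interstitium, of 15.4 and 15.8 FPKM (log2 0.04, adjusted p = 0.955).

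The matricellular and adhesive genes had positive log2 fold changes, none past the test, and wide spread between libraries. Sparc, which encodes osteonectin, a collagen-binding protein that aids fibril assembly (chromosome 11, from 55394159 to 55420080), stood at 176, 179 and 169 FPKM in the controls and at 294, 188 and 197 FPKM in the libraries labelled CM-RevDKO. The controls were close together, and CM-RevDKO replicate 1 was far above the rest. The log2 fold change was 0.34 (SE 0.17, 95% interval -0.05 to 0.73, adjusted p = 0.360). Postn, which encodes periostin, a hallmark of activated fibroblasts (chromosome 3, from 54359267 to 54391041), stood at 23.9, 13.0 and 9.62 FPKM in the controls and at 19.3, 14.4 and 12.0 FPKM in CM-RevDKO. The controls covered the whole range of the CM-RevDKO values, with a log2 fold change of 0.05 (95% interval -0.68 to 0.77, adjusted p = 0.965). Fn1, fibronectin, stood at 13.8, 7.18 and 7.86 FPKM in the controls and at 15.8, 10.1 and 8.46 FPKM in CM-RevDKO (log2 0.24, adjusted p = 0.724). Ctgf, connective tissue growth factor, a TGF-beta target whose current symbol is Ccn2, was nearly equal at 31.7, 19.1 and 20.0 FPKM in the controls and 32.6, 19.5 and 19.1 FPKM in CM-RevDKO (log2 0.00, adjusted p = 0.999). Thbs1, thrombospondin-1, an activator of latent TGF-beta, had the widest interval of the 40 genes, at 6.53, 1.13 and 1.77 FPKM in the controls and 4.53, 3.36 and 3.02 FPKM in CM-RevDKO (log2 0.38, 95% interval -0.63 to 1.38, adjusted p = 0.717).

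The small proteoglycans, which coat and space collagen fibrils, and Mgp did not pass the test. Dcn, decorin, which binds collagen and holds back TGF-beta, had the highest level of the 40, at 370.0, 261 and 263 FPKM in the controls and 304, 289 and 274 FPKM in the libraries labelled CM-RevDKO. Control replicate 1 was the highest, and the remaining 5 values lay between 261 and 304 FPKM (log2 -0.03, 95% interval -0.36 to 0.31, adjusted p = 0.957). Mgp, matrix Gla protein, an inhibitor of calcification, had means of 252 ± 44.8 and 269 ± 34.6 FPKM (SD, n = 3, log2 0.10, adjusted p = 0.792). Bgn, biglycan, a relative of decorin, stood at 94.4, 68.3 and 68.9 FPKM in the controls and at 117, 81.1 and 78.0 FPKM in CM-RevDKO (log2 0.24, adjusted p = 0.575). Lum, lumican, a regulator of fibril diameter, had means of 32.0 and 34.1 FPKM (log2 0.12, adjusted p = 0.805). The Dcn to Lum ratio was 8.37 to 8.59 in CM-RevDKO, below the 8.74 to 10.9 of the controls, a ratio picked out after the values were seen.

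Elastic fibres, built of elastin on a scaffold of fibrillin microfibrils, gave the fall of Fbln1 already described and no other call. Eln, elastin, stood at 13.4, 12.9 and 13.8 FPKM in the controls and at 30.6, 13.1 and 13.9 FPKM in the libraries labelled CM-RevDKO. All but CM-RevDKO replicate 1 were nearly equal, and the positive log2 fold change of 0.39 (95% interval -0.28 to 1.06, adjusted p = 0.552) rests on CM-RevDKO replicate 1. Fbn1, fibrillin-1, had means of 5.95 and 6.59 FPKM (log2 0.05, adjusted p = 0.956), and CM-RevDKO replicate 1 at 10.4 FPKM stood above the other CM-RevDKO values of 5.27 and 4.10 FPKM. Fbln2, the fibulin most like fibulin-1 in the set, stood at 20.9, 25.5 and 20.9 FPKM in the controls and at 27.1, 19.2 and 25.4 FPKM in CM-RevDKO (log2 0.08, adjusted p = 0.845). Its groups overlapped fully. The ratio of Fbln1 to Fbln2 was 1.37 to 1.56 in the controls and 0.614 to 0.976 in CM-RevDKO, which largely repeats the Fbln1 values. Mfap5, a microfibril-associated glycoprotein, had means of 18.6 and 19.3 FPKM (log2 0.01, adjusted p = 0.988).

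The enzymes that stiffen and remodel the matrix did not pass the test either. Lox, lysyl oxidase, had the lowest level of the 40, at 1.19, 0.792 and 0.548 FPKM in the controls and 1.23, 0.758 and 1.01 FPKM in CM-RevDKO, and at this level the log2(FPKM + 1) scale understates a change (log2 0.12, adjusted p = 0.803). Loxl1, the relative that crosslinks elastin, had means of 9.01 and 9.98 FPKM, and Loxl2, which oxidises collagen IV, of 6.39 and 6.87 FPKM (log2 0.09 and 0.04, adjusted p = 0.875 and 0.962). Mmp2, gelatinase A, stood at 22.2, 19.0 and 16.9 FPKM in the controls and at 25.0, 15.6 and 15.8 FPKM in CM-RevDKO (log2 -0.06, adjusted p = 0.909). Mmp14, the membrane-bound protease that activates pro-MMP2, had means of 3.71 and 3.90 FPKM (log2 0.02, adjusted p = 0.975).

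Among the protease inhibitors, Timp1 had the largest positive fold change of the 40 genes. Timp1 encodes a secreted inhibitor that inflammatory signals induce (ENSMUSG00000001131, chromosome X, 20870166 to 20874737). It stood at 1.59, 1.67 and 1.56 FPKM in the controls and at 4.27, 2.18 and 2.22 FPKM in the libraries labelled CM-RevDKO. The controls were close together, all CM-RevDKO values were above them, and replicate 1 was the highest by a wide margin. The log2 fold change was 0.54 (SE 0.21, 95% interval 0.05 to 1.02, unadjusted p = 0.0341, adjusted p = 0.253). Without CM-RevDKO replicate 1 it was 0.30. Timp2 had means of 29.3 and 32.5 FPKM (log2 0.14, adjusted p = 0.691). Timp3, which stays bound to the matrix, was the most abundant of the family, at 83.2, 64.6 and 57.6 FPKM in the controls and 69.4, 65.2 and 59.6 FPKM in CM-RevDKO (log2 -0.06, adjusted p = 0.873). Timp1 and Timp3 lie within the genes Syn1 and Syn3, for which no value was used here, so stray reads of those genes could not be checked.

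The TGF-beta ligands, which act upstream of matrix synthesis, did not pass the test, and Tgfb1 had the narrowest interval of the 40 genes. Tgfb1 (chromosome 7, from 25687002 to 25705077) stood at 9.63, 9.85 and 9.72 FPKM in the controls and at 10.7, 8.57 and 8.67 FPKM in CM-RevDKO. The controls were within a standard deviation of 0.110 FPKM, and the CM-RevDKO values lay on both sides of them (log2 -0.06, 95% interval -0.32 to 0.19, adjusted p = 0.824). Tgfb2 had means of 2.24 and 2.41 FPKM (log2 0.09, adjusted p = 0.833) and Tgfb3 of 5.33 and 5.44 FPKM (log2 0.02, adjusted p = 0.965).

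The fibroblast identity genes gave no sign of a shared shift. Pdgfra, the receptor tyrosine kinase that marks cardiac fibroblasts, stood at 7.68, 6.64 and 6.30 FPKM in the controls and at 7.21, 5.95 and 5.54 FPKM in the libraries labelled CM-RevDKO. This was the third lowest fold change of the 40 (log2 -0.13, 95% interval -0.42 to 0.17, adjusted p = 0.673). Tcf21, the transcription factor of the fibroblast lineage, stood at 6.49, 7.97 and 7.18 FPKM in the controls and at 9.53, 10.1 and 5.55 FPKM in CM-RevDKO (log2 0.16, adjusted p = 0.750). Tcf21 was the gene of the 40 whose highest value lay in CM-RevDKO replicate 2.

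**Figure D3:**
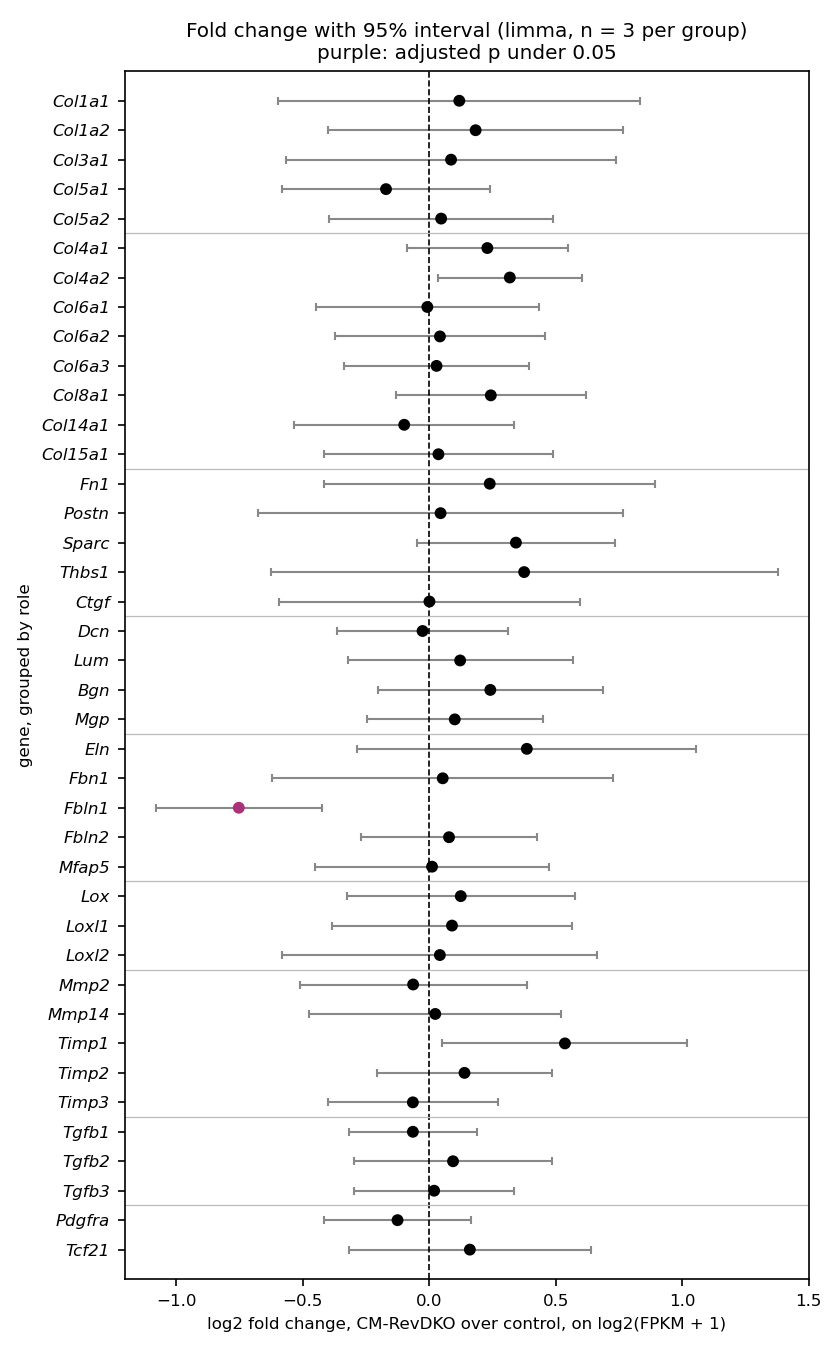
Log2 fold change of each of the 40 genes, CM-RevDKO over control on log2(FPKM + 1), with the 95% interval from limma (3 libraries per group), grouped by role with grey lines between groups. The interval excludes 0 for Fbln1, Col4a2 and Timp1, and the purple point, Fbln1 at -0.75, is the gene past the adjusted threshold.

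Further matrix and TGF-beta genes were counted from lists of whole families and pathways. Of 150 distinct genes tested that are not among the 40, 2 rose and 1 fell, or 2% against the 2.50% of all genes. Of the 150, 17 had a limma unadjusted p under 0.05, against 16.6% of all genes tested. Adam19, a membrane metalloprotease that sheds growth factors, rose from 3.11, 4.49 and 3.27 FPKM in the controls to 18.6, 18.0 and 17.4 FPKM in the libraries labelled CM-RevDKO, 4.96-fold in mean FPKM (log2 2.05, SE 0.13, adjusted p = 7.37e-04). Each CM-RevDKO value was far above each control, and replicate 1 did not stand out. Adamtsl4, a secreted protein that binds fibrillin-1 microfibrils, fell from 14.8, 15.4 and 13.3 FPKM to 8.62, 8.56 and 8.57 FPKM (log2 -0.69, SE 0.09, adjusted p = 0.0117). They were the 2 calls among 18 genes of a list of further matrix proteases, inhibitors and related proteins. Leaving out control replicate 1, control replicate 2 or CM-RevDKO replicate 2 ended the call of Adamtsl4 (adjusted p of 0.0541 to 0.0624, and 0.00800 to 1 over all alternatives). Tsc22d1, a TGF-beta-stimulated transcription regulator, rose from 77.0, 75.0 and 74.1 FPKM to 183, 155 and 172 FPKM (log2 1.16, adjusted p = 0.00130), the single call among 13 TGF-beta target genes.

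The remaining matrix, TGF-beta and fibroblast lists held no gene past the limma test. For 20 TGF-beta receptors, latency proteins and SMADs the median log2 fold change was 0.01, with 1 gene at an unadjusted p under 0.05. Its genes with the highest levels, Ltbp4, a latent TGF-beta binding protein, and Eng, the co-receptor endoglin, stood at 76.2 and 50.0 FPKM in the controls and at 86.7 and 51.4 FPKM in CM-RevDKO. Of 18 collagen processing genes, 4 had an unadjusted p under 0.05, against 16.6% of all genes tested, and the median was 0.08. Its highest levels were those of P4hb, a prolyl 4-hydroxylase subunit, at 61.9 and 68.1 FPKM, and Serpinh1, the chaperone HSP47, at 57.5 and 60.6 FPKM. For 13 basement membrane glycoproteins the count was 1 and the median -0.04, for 10 other collagens 1 and -0.03, for 20 matrix receptors 0 and 0.06, and for 27 other fibroblast markers 1 and 0.03. Their genes with the highest levels, in controls and CM-RevDKO, were Sparcl1 (87.4 and 87.1 FPKM) and the perlecan gene Hspg2 (54.8 and 47.7 FPKM), then Col4a5 (7.83 and 6.08 FPKM) and Col18a1 (3.35 and 3.66 FPKM), the integrin gene Itgb1 (128 and 134 FPKM) and the dystroglycan gene Dag1 (51.9 and 53.9 FPKM), and the cytoskeletal genes Gsn (459.8 and 440.5 FPKM) and Vim (90.0 and 83.7 FPKM). The group values of Col4a5 did not overlap (adjusted p = 0.223). The 18 markers of activated fibroblasts and myofibroblasts had the highest median of these lists, 0.39. Of them 5 had an unadjusted p under 0.05, against 16.6% of all genes tested. Acta2, the smooth muscle actin of myofibroblasts and vessel walls, stood at 34.5, 29.4 and 39.4 FPKM in the controls and at 52.9, 46.1 and 71.5 FPKM in CM-RevDKO, without overlap (log2 0.69, adjusted p = 0.103). Myl9, a smooth muscle myosin light chain, stood at 23.0 and 35.2 FPKM (log2 0.60, adjusted p = 0.190), and the fibroblast activation protein gene Fap at 2.15 and 1.82 FPKM (adjusted p = 0.683). The activated list had a median difference from the control mean of 0.41, -0.22 and -0.19 in control replicates 1, 2 and 3 and of 0.73, 0.31 and 0.10 in CM-RevDKO replicates 1, 2 and 3. It shares Acta2, Tagln and Cnn1 with the smooth muscle list, so these transcripts cannot be assigned to fibroblasts.

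Markers of other cells also differed between libraries, and their part in the results above was not tested. Beside the high values of CM-RevDKO replicate 1, macrophage and monocyte markers summed to 394 FPKM in that library and to 234 to 278 FPKM in the other 5 (0 of 12 called). Atrial markers summed to 1570 FPKM there, to 855 and 936 FPKM in the other CM-RevDKO libraries and to 309 to 379 FPKM in the controls. Of 10 tested 1 was called, against 2.50% of all genes tested, the hormone gene Nppa, which ventricles also express. Nppa alone stood at 813, 589 and 630 FPKM in CM-RevDKO replicates 1, 2 and 3 and at 134 to 164 FPKM in the controls. Of the 10 genes, 5 had a positive and 5 a negative log2 fold change, with a median of 0.20 and a lowest value of -0.37. A limma unadjusted p under 0.05 was reached by 5, against 16.6% of all genes tested. The groups did not overlap for 5, against 23.1% of all genes tested. Myl7, the atrial myosin light chain, stood at 288, 67.6 and 87.8 FPKM in CM-RevDKO replicates 1, 2 and 3 and at 27.8 to 51.9 FPKM in the controls. For adipocyte markers the median difference from the control mean was 1.31, 0.99 and -0.20 in CM-RevDKO replicates 1, 2 and 3. Of 8 tested 0 were called, but 3 had a limma unadjusted p under 0.05, against 16.6% of all genes tested. Of the 8 genes, 6 had a positive and 2 a negative log2 fold change, with a median of 0.76. The list summed to 612 to 1133 FPKM in CM-RevDKO and 719 to 847 FPKM in the controls. Those sums mainly follow Fabp4, at 1020, 759 and 581 FPKM in CM-RevDKO replicates 1, 2 and 3 and 688 to 807 FPKM in the controls. Beside the high values of control replicate 1, valve interstitial markers, a list that includes Mgp, had a median of 0.96 in that library and of -0.49 and -0.13 in the other controls. They summed to 249 to 372 FPKM in the controls and 284 to 361 FPKM in CM-RevDKO (0 of 7 called).

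Endothelial markers summed to 444 to 509 FPKM in the controls and 480 to 543 FPKM in CM-RevDKO (0 of 12 called). Smooth muscle and pericyte markers summed to 671 to 787 and 661 to 727 FPKM (1 of 12 called). That call was Abcc9, a channel subunit gene that cardiomyocytes express too, which fell from 50.2 to 31.1 FPKM (adjusted p = 0.0113). Leaving out control replicate 1 or 2 ended the call of Abcc9 (adjusted p = 0.0600 and 0.0537, and 0.00800 to 1 over all alternatives). Schwann cell markers summed to 31.1 to 32.3 and 25.5 to 30.2 FPKM (0 of 4 called), lymphocyte markers to 3.24 to 5.57 and 4.73 to 6.43 FPKM (0 of 3 called) and epicardial and mesothelial markers to 3.27 to 6.01 and 5.21 to 10.1 FPKM (0 of 5 called). Of their defining markers, Msln was listed at 0 in a control library and the atrial hormone gene Bmp10 at 0 in all libraries but CM-RevDKO replicate 1. Sox10, Cd3e and Krt19 were among those with no value in the 13575 genes measured. Values existed for 4 of 9 listed Schwann cell, 3 of 9 lymphocyte and 5 of 12 epicardial and mesothelial markers. For these lists and those of the preceding paragraph, the genes with the highest levels follow, with control means first and CM-RevDKO means after. The endothelial Ly6c1 and Egfl7 had 145 and 63.7, then 141 and 62.2 FPKM. The macrophage Lyz2 and C1qa had 104 and 53.2, then 115 and 57.9 FPKM. Ptprc and Cd79a had 1.81 and 1.44, then 2.47 and 1.61 FPKM, and Aldh1a2 and Wt1 had 1.64 and 1.28, then 1.59 and 1.22 FPKM. The valve gene Cytl1, beside Mgp, had 16.0, then 20.5 FPKM. From the adipocyte list, Fabp4 and Cidea had 747 and 19.0, then 786 and 18.4 FPKM. The glial Pmp22 and Cnp had 24.9 and 3.75, then 19.7 and 4.50 FPKM. None of these highest genes passed the test. Nppa had means of 147 and 677 FPKM. Cardiomyocyte markers summed to 34762 to 37289 FPKM in the controls and 36766 to 39064 FPKM in CM-RevDKO (0 of 10 called). A limma unadjusted p under 0.05 was reached by 6, against 16.6% of all genes tested. The groups did not overlap for 7, against 23.1% of all genes tested. Of the 10 genes, 4 had a positive and 6 a negative log2 fold change, with a median of -0.14 and a range of -0.62 to 0.37. Per library, the median difference from the control mean was -0.27, -0.20 and 0.14 in CM-RevDKO replicates 1, 2 and 3. The highest levels of the list were those of Myl2, the ventricular myosin light chain, at 6917 and 8293 FPKM and Mb at 7913 and 10212 FPKM. Both are among the 4 with a positive log2 fold change.

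**Figure D4:**
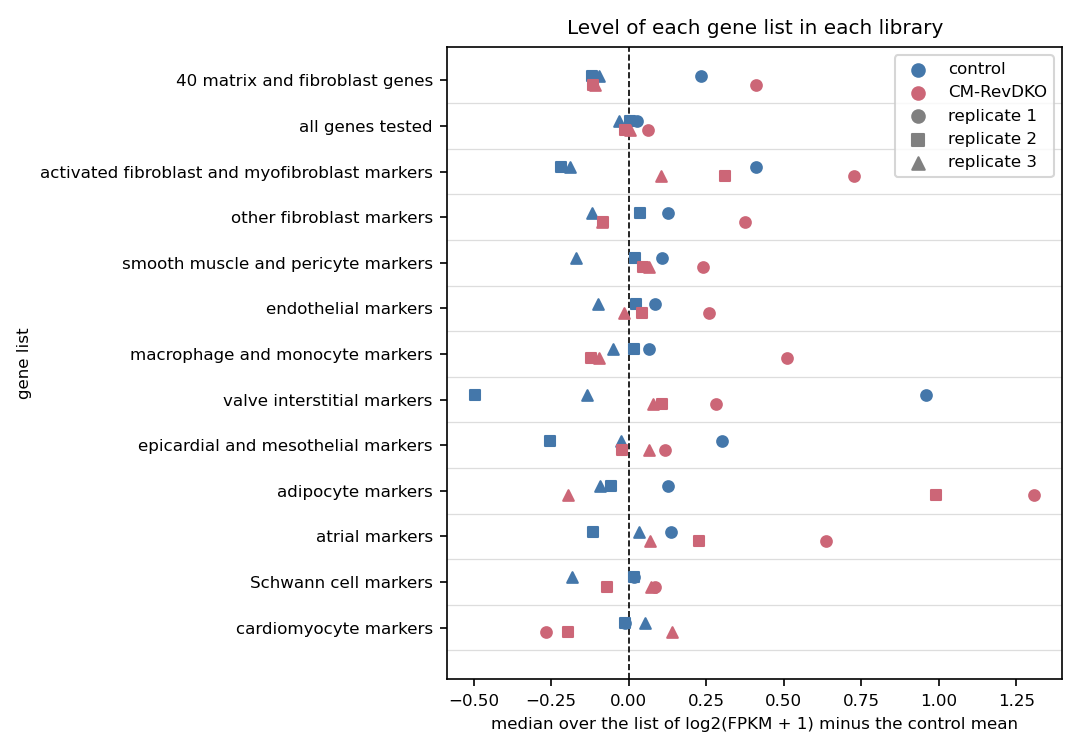
Median over each gene list of log2(FPKM + 1) minus the control mean, per library, with control in blue, CM-RevDKO in red and the marker shape giving the replicate. For the 40 genes the replicates 1 stand at 0.23 and 0.41 and the other 4 libraries near -0.11. CM-RevDKO replicate 1 is also furthest right for the macrophage, atrial, adipocyte, endothelial, smooth muscle, Schwann cell and both fibroblast lists. It is furthest left for the cardiomyocyte list. Control replicate 1 is furthest right for the valve and epicardial lists.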

How the data were processed

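RNA values of 6 heart libraries (3 per group, 30 samples in the series) were used, and the other 24 samples were not analysed here. The authors deposited 1 value per gene and library, read as FPKM. The submitters' processing notes name HISAT2, StringTie and mm10, without versions; annotation and strandedness were not given in the sources used here. Columns were matched to samples by group and replicate number. Values were taken as log2(FPKM + 1), and genes averaging 0.5 FPKM or more were kept. The limma 3.58.1 fit (R 4.3.3, trended eBayes, no term but group) covered all 13256 genes, two-sided, with a Benjamini-Hochberg threshold of 0.05. The procedure was run on simulated data with independent errors per gene. Such data hold no shift shared by many genes of a library, so they cannot speak to the replicate 1 pattern. Alternatives were other pseudocounts, filters and scalings, no trend, a test against a fold change of 1.5, a replicate block and left-out libraries. Fold changes on this scale understate changes of low genes. The labels do not say that replicates are separate animals, so p-values reflect the spread between libraries, which may be technical; no libraries were identical.

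The 40 genes and all lists were chosen with earlier results of these data known. All 40 genes are reported. Those past the test, with groups that do not overlap, or among the 3 highest or lowest fold changes get values per library, as do further genes picked for their role. From each other list up to 3 genes past the test, or otherwise up to 2 with the highest level, are named; Fap, Myl7, Nr1d1, Nr1d2 and genes so marked lie outside that rule. The lists are matrix, TGF-beta and fibroblast lists and markers of 10 cell types. Coordinates and promoters come from RefSeq for GRCm38.p6, matched by current or older symbol for 40 and 24 genes. Annotated genes overlap 16 of the 40, and for 3 (Col4a1, Col4a2 and Ctgf) the overlapping gene has values here.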

Additional observations from a re-analysis of the deposited data

How the results depend on the processing

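None of the 40 genes was called higher by limma under any setting, and at an unadjusted p under 0.05 there were 3 genes in all. Fbln1 was the single gene called lower. The count of genes lower was 1 under other pseudocounts, filters and scalings and 0 without the intensity trend, against a fold change of 1.5, with a replicate block, and in all 3 fits that leave out a pair of libraries; with 1 library left out it was 0 to 1. Over all genes 332 were called, 35 against a fold change of 1.5, 115 with a replicate block, 105 without control replicate 2 and CM-RevDKO replicate 1, 21 for CM-RevDKO replicate 3 against the controls, a lone library assumed to vary like the controls, and 35 without replicate 1 of both groups (chosen after seeing the data). With 1 library left out the count was 120 to 322. Of the 150 further matrix genes 2 were higher, but 1 against a fold change of 1.5, 1 for CM-RevDKO replicate 3 alone and 3 without control replicate 1, with 2 to 3 over the fits that leave out 1 library. The 1 lower became 0 against a fold change of 1.5, for CM-RevDKO replicate 3 alone, with the replicate block and in the other fits that leave out a pair, and was 0 to 2 with 1 library left out. The labels do not say what a replicate number stands for. Over all genes tested, deviations of same-numbered libraries correlated at -0.04, -0.06 and 0.09, and not every library correlated best with its own number. Whether same-numbered libraries share more than a number for part of the genes was not tested. With the replicate block the limma adjusted p of Fbln1 was 0.0685. Scaled without the mitochondrially encoded genes, 11 of the 40 genes changed sign, to 20 positive and 20 negative with a median of 0.00, and of all genes 118 were higher and 212 lower. Median ratio and quantile scaling changed the sign of 3 and 2. Without control replicate 2, 12 changed sign and the median was -0.02; without CM-RevDKO replicate 1, 17 changed sign; the cause was not tested. Unknown depth limits the low genes Lox, Timp1 and Tgfb2.

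Without control replicate 2 and CM-RevDKO replicate 1, the log2 fold change changed sign for Col1a1 (-0.36), Col1a2 (-0.17), Col3a1 (-0.34), Col5a2 (-0.17), Col6a2 (-0.22), Col6a3 (-0.16), Col15a1 (-0.27), Fn1 (-0.16), Postn (-0.20), Thbs1 (-0.12), Ctgf (-0.37), Lum (-0.11), Bgn (-0.021), Mgp (-0.065), Eln (-0.011), Fbn1 (-0.41), Mfap5 (-0.18), Loxl1 (-0.18), Loxl2 (-0.37), Mmp14 (-0.18), Timp2 (-0.090), Tgfb2 (-0.070), Tgfb3 (-0.15), Ltbp4 (-0.073), Eng (-0.022), Col18a1 (-0.19), Itgb1 (-0.079), Lyz2 (-0.13), C1qa (-0.10) and Fabp4 (-0.17). With CM-RevDKO replicate 3 alone against the controls, the log2 fold change changed sign for Col1a1 (-0.18), Col1a2 (-0.048), Col3a1 (-0.24), Col5a2 (-0.21), Col6a2 (-0.073), Col6a3 (-0.026), Fn1 (-0.12), Postn (-0.25), Ctgf (-0.25), Fbn1 (-0.43), Mfap5 (-0.20), Loxl2 (-0.18), Mmp14 (-0.23), Tgfb3 (-0.16), Tcf21 (-0.32), Ltbp4 (-0.0031), Col18a1 (-0.39), Itgb1 (-0.023), Egfl7 (0.076), Lyz2 (-0.13), C1qa (-0.063), Ptprc (-0.035), Wt1 (0.20) and Fabp4 (-0.36). Without replicate 1 of both groups, the log2 fold change changed sign for Col3a1 (-0.12), Col6a2 (-0.045), Ctgf (-0.018), Dcn (0.10), Fbn1 (-0.16), Fbln2 (-0.062), Mfap5 (-0.25), Loxl1 (-0.11), Loxl2 (-0.10), Mmp14 (-0.14), Timp3 (0.032), Tgfb3 (-0.0045), Tcf21 (-0.0046), Serpinh1 (-0.50), Col18a1 (-0.074), Egfl7 (0.0050), Lyz2 (-0.094), C1qa (-0.21), Wt1 (0.15) and Fabp4 (-0.11). Rescaled without mitochondrially encoded genes, the log2 fold change changed sign for Col5a2 (-0.013), Col6a2 (-0.024), Col6a3 (-0.030), Col15a1 (-0.029), Postn (-0.020), Ctgf (-0.066), Fbn1 (-0.0061), Mfap5 (-0.055), Loxl2 (-0.019), Mmp14 (-0.031), Tgfb3 (-0.039), Eng (-0.024), Itgb1 (-0.0086), Dag1 (-0.013) and Fabp4 (-0.031). With quantile normalization, the log2 fold change changed sign for Ctgf (-0.051), Mfap5 (-0.029), Eng (-0.024), Itgb1 (-0.046) and Fabp4 (-0.085). With median ratio scaling, the log2 fold change changed sign for Ctgf (-0.022), Mfap5 (-0.012) and Tgfb3 (-0.00095). With pseudocount 0.1, the log2 fold change changed sign for Wt1 (0.017). With 1 library left out the sign also changed, and the log2 fold change ranged, for Col1a1 -0.21 to 0.35, Col1a2 -0.11 to 0.36, Col3a1 -0.26 to 0.27, Col5a2 -0.13 to 0.18, Col6a1 -0.20 to 0.13, Col6a2 -0.14 to 0.17, Col6a3 -0.10 to 0.14, Col14a1 -0.31 to 0.049, Col15a1 -0.12 to 0.19, Postn -0.23 to 0.39, Ctgf -0.24 to 0.22, Dcn -0.11 to 0.14, Lum -0.061 to 0.34, Fbn1 -0.28 to 0.30, Fbln2 -0.015 to 0.22, Mfap5 -0.23 to 0.15, Loxl1 -0.14 to 0.28, Loxl2 -0.26 to 0.23, Mmp2 -0.28 to 0.046, Mmp14 -0.21 to 0.15, Timp2 -0.0012 to 0.22, Timp3 -0.18 to 0.083, Tgfb2 -0.029 to 0.26, Tgfb3 -0.084 to 0.11, Sparcl1 -0.092 to 0.046, Serpinh1 -0.36 to 0.50, Eng -0.056 to 0.15, Gsn -0.16 to 0.018, Vim -0.48 to 0.065, Col18a1 -0.22 to 0.29, Itgb1 -0.020 to 0.13, Ly6c1 -0.10 to 0.030, Egfl7 -0.093 to 0.019, Lyz2 -0.13 to 0.22, C1qa -0.19 to 0.27, Cd79a -0.029 to 0.37, Aldh1a2 -0.10 to 0.039, Wt1 -0.23 to 0.14, Fabp4 -0.17 to 0.24 and Cidea -0.28 to 0.078. None of these genes passed the test in either fit.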

Other observations

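The collagen processing genes in this paragraph were chosen after their values were seen and do not stand for their list of 18, of which 13 had a positive and 5 a negative log2 fold change. Serpinh1, the collagen chaperone HSP47 and a heat shock gene, stood at 26.8, 70.7 and 75.1 FPKM in the controls and at 69.6, 32.6 and 79.7 FPKM in the libraries labelled CM-RevDKO. It was thus lowest in control replicate 1, where 30 of the 40 matrix and fibroblast genes had their highest control value. Fkbp10, a prolyl isomerase needed for type I procollagen, stood at 11.9, 10.4 and 10.4 FPKM in the controls and at 8.53, 6.37 and 5.34 FPKM in CM-RevDKO (log2 -0.64, limma adjusted p = 0.0923). P4ha2, a catalytic subunit of prolyl 4-hydroxylase, stood at 15.6, 16.4 and 19.0 FPKM in the controls and at 10.5, 12.4 and 12.9 FPKM in CM-RevDKO (log2 -0.48, adjusted p = 0.0919). Neither gene's groups overlapped, and Fkbp10 passed without CM-RevDKO replicate 1 (adjusted p = 0.0361).

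Other genes chosen after their values were seen follow. Thbs4, thrombospondin-4, a stress-induced matricellular protein, stood at 3.53, 1.32 and 1.07 FPKM in the controls and at 4.03, 5.54 and 4.55 FPKM in CM-RevDKO (log2 1.02, adjusted p = 0.131). It passed without control replicate 1 (adjusted p = 0.0261). Tgfbr3, the betaglycan co-receptor, stood at 13.8, 11.7 and 13.3 FPKM in the controls and at 10.2, 9.81 and 9.47 FPKM in CM-RevDKO (log2 -0.36, adjusted p = 0.126), and the basement membrane laminin gene Lama5 at 14.0, 18.4 and 12.0 against 7.23, 10.0 and 10.4 FPKM (log2 -0.62, adjusted p = 0.147).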
